A study of Mus musculus with 15 samples.

Results

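The genes described here encode the enzymes that remove methyl groups from lysine 27 of histone H3 (H3K27) and the enzymes of the MLL/COMPASS complexes that methylate lysine 4 of histone H3 (H3K4), together with partner proteins of these complexes. They were listed by name and function, not by a threshold on measured values, as *Kdm6a*, *Kdm6b*, *Kmt2a*, *Kmt2b*, *Kmt2c*, *Kmt2d*, *Setd1a*, *Setd1b*, *Paxip1*, and *Ncoa6*. Of these 10 genes, 9 were found by symbol among the 21669 genes with a symbol in the expression table, and all 9 passed the filter on low expression that left 11299 genes for testing. *Setd1b* was not analysed here.

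RNA-seq was performed on B cells of female C57BL/6J mice, 6 to 9 weeks of age, without an engineered allele. Naive splenic B cells (nB, CD43-) were not cultured. Activated B cells (actB, sorted as B220+GL7+CD138-) and plasmablasts (Pb, sorted as CD138+) were taken after 3 days of culture. The cultures received LPS and the cytokines IL2 and IL5, and either 2 μM GSK343, an inhibitor of the H3K27 methyltransferase EZH2, or DMSO, its vehicle. For Pb with GSK343 the stimulation label reads Il6, whereas the culture protocol of the same samples and the study's text name IL5. Were the label right, drug and cytokine could not be told apart in Pb. The comparisons made here were nB to actB and actB to Pb (the steps of differentiation), nB to Pb, and GSK343 against DMSO in each cell type.

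Each of the 5 groups had 3 libraries with 19421830 to 26307413 reads, so that 3 reads, the limit that a count of 0 allows, equalled 0.114 to 0.154 RPM (reads scaled to a library of 1000000). Replicates 1 and 2 of nB differed by less than the sampling noise and were counted as 1 sample, which left 14 libraries. Replicate 2 stood apart from replicates 1 and 3 in every cultured group. The chi-square per degree of freedom of its reads was 16.7 to 29.7 in actB, against 3.80 and 6.07 between replicates 1 and 3, and 7.64 to 11.4 in Pb, against 3.58 and 3.68. The summed level of 4 naive B cell markers was 1234 to 1335 RPKM (RPM divided by the gene length in kilobases) in nB, 580 to 678 in actB with DMSO, and 162 to 185 in Pb with DMSO. The summed level of 6 plasmablast markers was 215 to 231, 485 to 522, and 3083 to 3234 RPKM in the same order, so that these markers followed the labels. In all 5 groups the sample titles join the letter m to the replicate number. What this prefix stands for is not stated in the sources used here, so a shared animal or batch across groups is possible. The study calls its replicates biological. The main fit did not pair libraries by this number, and its p-values measure the spread between these libraries. In RNA from whole populations, fewer cells with a transcript and less of it per cell cannot be told apart.

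EZH2, as part of Polycomb repressive complex 2 (PRC2), places the repressive mark H3K27me3, and the demethylases KDM6A (UTX) and KDM6B (JMJD3) remove it. KDM6B is known as an inducible enzyme of immune cells, whereas KDM6A is a stable subunit of the complexes built around KMT2C (MLL3) and KMT2D (MLL4), which place H3K4me1 at enhancers and also hold PAXIP1 (PTIP) and NCOA6. KMT2A (MLL1), KMT2B, and SETD1A act in sister complexes that methylate H3K4 at promoters and share a core with the MLL3 and MLL4 complexes, and PTIP is known in B cells for its role in class switching.

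Promoters of 7 of the 9 genes were in a table of RefSeq promoter sequences (GRCm38.p6, 300 bases around the start of the gene), and those of *Kdm6b* and *Kmt2b* were not. Shown here are the promoters of *Kmt2c* (chr5:25498734-25499033, - strand) and *Kmt2d* (chr15:98871156-98871455, - strand), which encode the catalytic subunits of the enhancer complexes and whose levels fell together upon activation, and that of *Kdm6a* (chrX:18162325-18162624, + strand), the demethylase of the same complexes, whose level changed little. They are written 5′ to 3′ with CG dinucleotides in capitals.

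*Kmt2c*: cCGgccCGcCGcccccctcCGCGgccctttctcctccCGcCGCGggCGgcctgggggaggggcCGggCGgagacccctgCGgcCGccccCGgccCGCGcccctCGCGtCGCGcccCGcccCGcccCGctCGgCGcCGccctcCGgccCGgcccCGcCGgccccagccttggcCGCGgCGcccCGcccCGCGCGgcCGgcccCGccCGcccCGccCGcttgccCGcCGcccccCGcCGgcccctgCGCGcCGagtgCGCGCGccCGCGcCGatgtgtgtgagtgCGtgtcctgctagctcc

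*Kmt2d*: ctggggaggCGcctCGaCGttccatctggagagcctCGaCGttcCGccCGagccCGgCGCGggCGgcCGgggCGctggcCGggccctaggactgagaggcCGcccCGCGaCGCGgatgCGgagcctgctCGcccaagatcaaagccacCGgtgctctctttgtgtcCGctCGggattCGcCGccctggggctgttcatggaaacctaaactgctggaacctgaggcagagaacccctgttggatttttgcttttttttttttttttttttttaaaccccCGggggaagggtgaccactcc

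*Kdm6a*: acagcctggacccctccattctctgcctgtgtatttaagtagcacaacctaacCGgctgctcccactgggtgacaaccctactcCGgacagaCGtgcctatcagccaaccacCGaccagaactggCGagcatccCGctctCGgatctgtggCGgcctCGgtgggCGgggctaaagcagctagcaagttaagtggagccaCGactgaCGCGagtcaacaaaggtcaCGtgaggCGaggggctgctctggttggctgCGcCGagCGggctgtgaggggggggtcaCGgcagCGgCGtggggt

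The *Kmt2c* promoter held 56 CG dinucleotides and 88% G or C, and 99.81% of the 32851 promoters in the table held fewer CG. The *Kmt2d* promoter held 27, that of *Kdm6a* 21, and those of *Kmt2a*, *Setd1a*, and *Paxip1* held 36, 35, and 28, against a median of 7 over all promoters. The window used for *Ncoa6* held 1, and it was not checked against other starts of that gene. Searched on both strands, an E-box (CACGTG) began at base 224 of the *Kdm6a* promoter and an NF-κB type motif (GGNNNTTCC) at base 285 of the *Kmt2a* promoter. A Blimp-1 type motif (GTGAAAG) had no match in the 7 windows. These motifs occurred in 7.15%, 18.48%, and 4.237% of all promoters. The E-box holds a CG and overlaps 1 of those counted above.

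The H3K27 demethylases were at similar levels in nB and diverged in culture. *Kdm6b* fell by 2.15 on the log2 scale from nB to actB, was lower still in Pb by a difference that lost its call under each rescaling, and was lowest in Pb with GSK343. *Kdm6a* remained within 22.1 to 28.9 RPKM in all 14 libraries.

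*Kdm6b* (chr11:69212010-69227177, - strand, mm9) was measured at 22.0 RPKM in the merged library and 18.1 in replicate 3 of nB. In actB with DMSO its level was 4.58, 4.25, and 4.11 RPKM in replicates 1 to 3, and with GSK343 it was 3.70, 3.81, and 3.47. In Pb with DMSO its level was 3.78, 3.77, and 3.32 RPKM, and with GSK343 it was 2.50, 2.61, and 2.35. Both nB libraries lay above every cultured library, and all Pb libraries with GSK343 lay below every other library. Between these, the ranges of actB with GSK343 and Pb with DMSO overlapped. The level in actB was 4.44-fold lower than in nB (log2 fold change -2.15, SE 0.094, adjusted p = 5.40e-10, limma). From actB to Pb it fell by 0.24 on the log2 scale (SE 0.084, adjusted p = 0.0239). This call was lost with median scaling (log2 fold change -0.13, adjusted p = 0.230), quantile normalization (-0.10, 0.309), gene length regressed out (-0.13, 0.212), and edgeR with TMM (-0.19, 0.0669) or RLE (-0.14, 0.183). It was also lost without replicate 1 of actB with DMSO (0.0890) and without replicate 3 of Pb with DMSO (0.0989). The lowest level rested on 340 reads. Exons of *Kdm6b* overlap the processed transcript *1700064E03Rik* on the other strand, and whether counting used strand is not known, so reads of the overlap cannot be told apart.

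*Kdm6a* (chrX:17739701-17857062, + strand) was measured at 24.6 and 25.1 RPKM in nB. Its level was 23.5, 22.2, and 22.8 RPKM in actB with DMSO, and 28.9, 26.4, and 26.7 in Pb with DMSO. The Pb libraries lay above all those of nB and actB. From nB to actB the log2 fold change was -0.12 (SE 0.061, adjusted p = 0.0838), which did not pass the threshold of 0.05, and from actB to Pb *Kdm6a* rose by 0.26 (SE 0.054, adjusted p = 0.00105). Between nB and Pb the log2 fold change was 0.13 (adjusted p = 0.0584). The first of the differences that missed the threshold passed it with median scaling, quantile normalization, and edgeR with TMM or RLE factors, at a log2 fold change of -0.21 to -0.17. The second passed it under the same 4 alternatives (0.15 to 0.17), with gene length regressed out (0.24), with all 15 columns (0.14), and without replicate 2 of Pb with DMSO (0.16). *Uty*, the Y-linked paralogue, was at most 0.0107 RPKM, which is 2 reads, in these female cells.

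**Figure D1:**
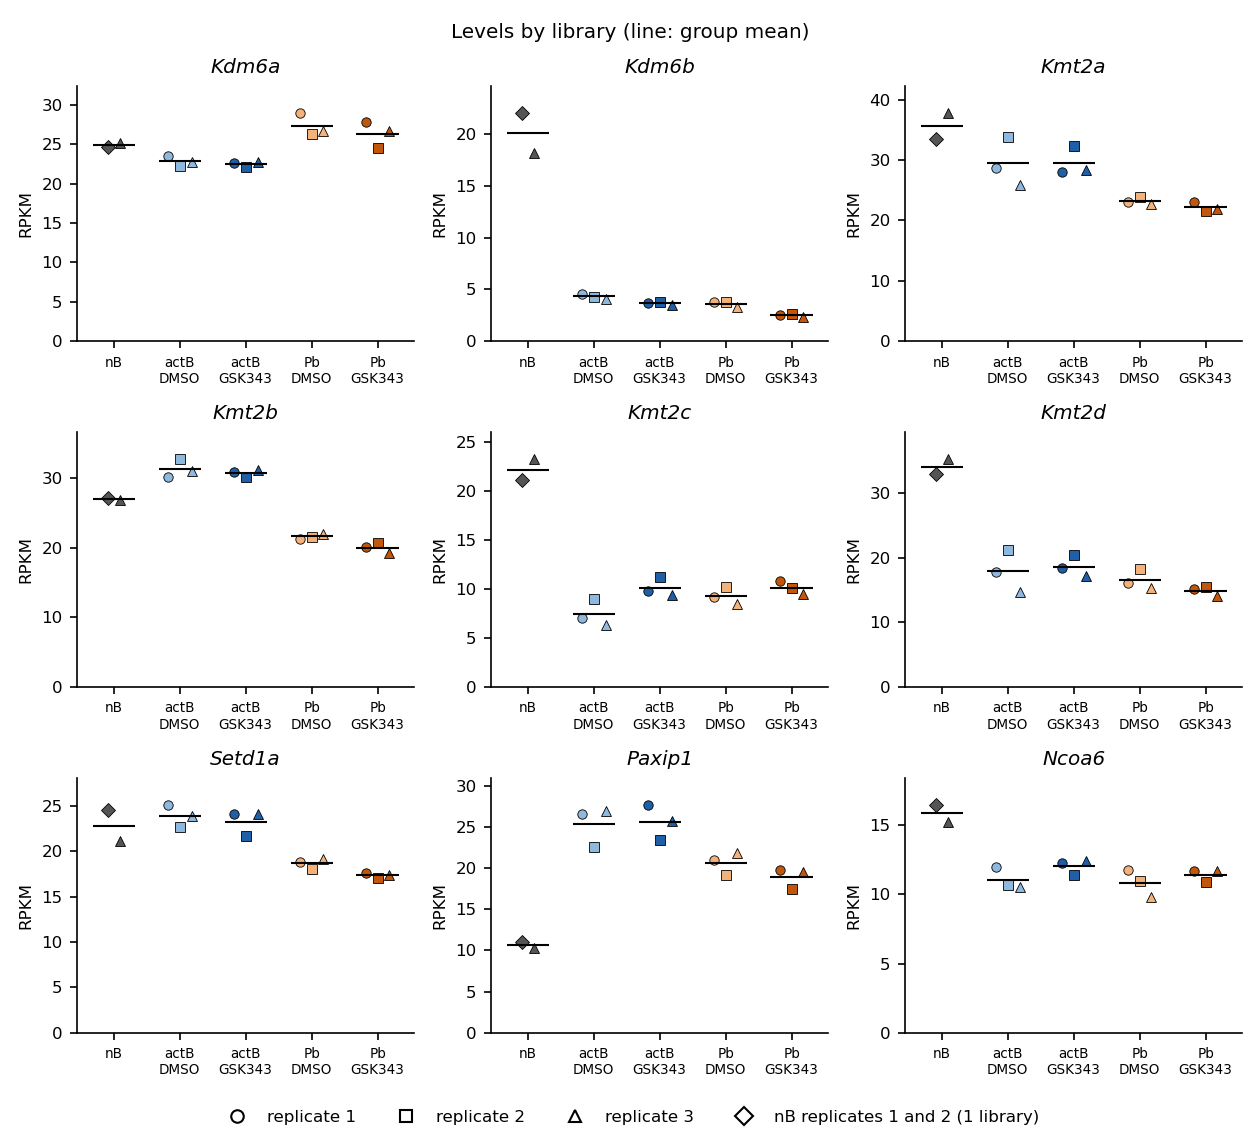
Level of each gene in RPKM (y axis, from 0) in the 14 libraries by group, with marker shapes for replicates and a line for the group mean. *Kdm6b* dropped from 18.1 and 22.0 RPKM in nB to at most 4.58 in cultured cells, *Paxip1* was above 17 RPKM in every cultured library and near 10 in nB, and *Kdm6a* moved between 22.1 and 28.9 RPKM.

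The ratio of the demethylases within a library does not depend on how libraries are scaled. *Kdm6b* per *Kdm6a* was 0.895 and 0.722 in nB, 0.195, 0.192, and 0.18 in actB with DMSO, and 0.131, 0.143, and 0.124 in Pb with DMSO. With GSK343 it was 0.163, 0.172, and 0.152 in actB and 0.0897, 0.107, and 0.0882 in Pb. Groups did not overlap in any of the 5 comparisons. The two-sided exact permutation p was 0.1 between cultured groups and 0.2 against nB, the smallest that 3 libraries against 3, and 2 against 3, can give. The mean ratio was 4.26-fold lower in actB than in nB, 1.42-fold lower in Pb than in actB with DMSO, and 1.40-fold lower with GSK343 than with DMSO in Pb (geometric means).

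The transcript of EZH2, the methyltransferase that these enzymes oppose, moved opposite to that of *Kdm6b* on activation, whereas *Kdm6a* was not called. *Ezh2* rose by 2.83 on the log2 scale from nB to actB (SE 0.089, adjusted p = 2.96e-11). *Ezh2* per summed *Kdm6a* and *Kdm6b* was 0.296 and 0.330 in nB, 3.66, 3.56, and 3.96 in actB with DMSO, and 2.46, 2.36, and 2.71 in Pb with DMSO. Left out of this ratio were *Ezh1* of the PRC2 core and *Kdm7a*, another H3K27 demethylase gene. Their means were 19.4 and 36.0 RPKM in nB and 6.85 and 7.79 in actB with DMSO. The ratio was 11.9-fold higher in actB than in nB and 1.49-fold lower in Pb than in actB, with no overlap and an exact permutation p of 0.2 and 0.1, in that order, again the smallest possible. With GSK343 it was 4.86, 4.10, and 4.85 in actB, above all actB libraries with DMSO (p = 0.1, exact permutation test, the smallest possible). In Pb with GSK343 it was 2.66, 2.93, and 3.02, where the groups overlapped (p = 0.2, exact permutation test). None of the genes in this ratio was called with GSK343 in actB. *Ezh2* had overlapping groups there (log2 fold change 0.25, adjusted p = 0.0705, limma).

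**Figure D2:**
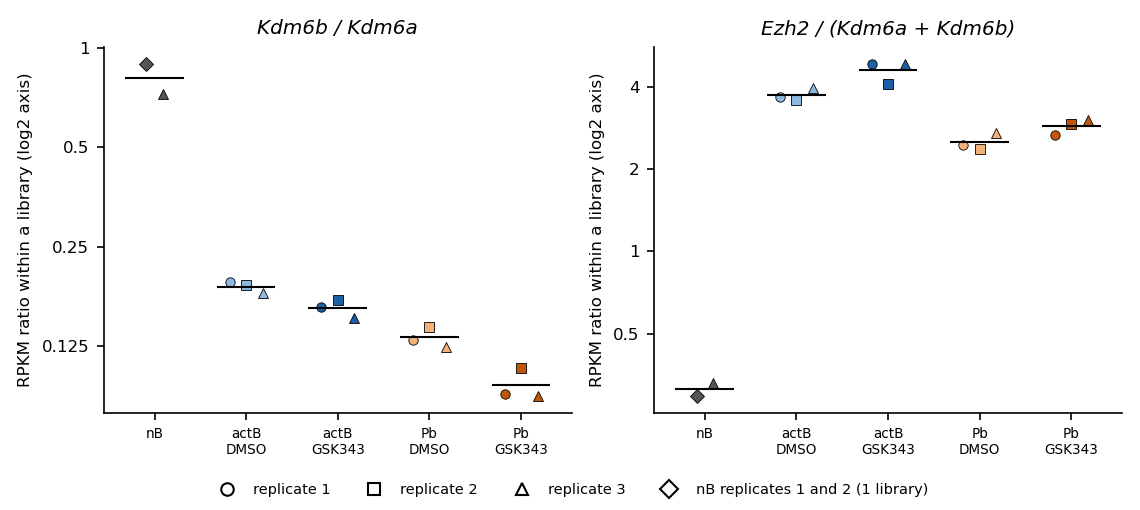
Ratios of RPKM within each library on log2 axes by group, with the group mean of the ratio as a line: *Kdm6b* per *Kdm6a* (left) and *Ezh2* per summed *Kdm6a* and *Kdm6b* (right). The left ratio fell from a mean of 0.809 in nB to 0.0949 in Pb with GSK343, and the right ratio rose from 0.313 in nB to 4.60 in actB with GSK343.

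The H3K4 methyltransferases did not move as a block on activation. *Kmt2c*, the enhancer enzyme of the MLL3 complex, fell by 1.56 on the log2 scale from nB to actB, *Kmt2d*, that of the MLL4 complex, fell by 0.93, *Kmt2b* rose by 0.21, and the difference in *Setd1a* did not pass the test.

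*Kmt2c* (chr5:24777612-25004601, - strand) was measured at 21.1 and 23.2 RPKM in nB, and at 7.0, 8.94, and 6.32 in actB with DMSO. Its level was 9.15, 10.2, and 8.44 RPKM in Pb with DMSO. Every cultured library lay below both nB libraries, and the actB and Pb ranges overlapped through replicate 2 of actB. The level in actB was 2.95-fold lower than in nB (SE of the log2 fold change 0.131, adjusted p = 2.44e-07). From actB to Pb *Kmt2c* rose by 0.32 on the log2 scale (SE 0.117, adjusted p = 0.0273). This call was lost when the compared groups were fitted alone (adjusted p = 0.0847), without replicate 1 (0.0809) or 3 (0.127) of actB with DMSO, and without replicate 1 (0.0551) or 2 (0.106) of Pb with DMSO. With gene length regressed out the rise was 0.54.

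*Kmt2d* (chr15:98662100-98701614, - strand) was at 32.9 and 35.3 RPKM in nB. In actB with DMSO its level was 17.8, 21.1, and 14.8 RPKM, and in Pb with DMSO it was 16.2, 18.3, and 15.2. Cultured libraries lay below those of nB without overlap, and the actB and Pb ranges overlapped. The level was 1.91-fold lower in actB than in nB (SE of the log2 fold change 0.127, adjusted p = 2.23e-05). With gene length regressed out it still fell, at a log2 fold change of -0.59 in place of -0.93. The log2 fold change from actB to Pb was -0.10 (adjusted p = 0.457, 95% interval -0.35 to 0.15).

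*Kmt2a* (chr9:44611438-44689379, - strand, listed as *Mll1* in the mm9 annotation) was the most abundant of the genes per length in nB, at 33.4 and 37.7 RPKM. In actB with DMSO its level was 28.7, 33.9, and 25.8 RPKM, and in Pb with DMSO it was 23.0, 23.8, and 22.7. The nB and actB ranges overlapped through replicate 2 of actB, and every Pb library with DMSO lay below all of these. From nB to actB *Kmt2a* fell by 0.27 on the log2 scale (SE 0.10, adjusted p = 0.0237), a direction that turned to 0.01 when a trend on gene length was regressed out (adjusted p = 0.834). That call was also lost with the compared groups alone (adjusted p = 0.0894), without replicate 3 of nB (0.202), and without replicate 1 (0.0563) or 3 (0.0942) of actB with DMSO. In the step to Pb *Kmt2a* fell by 0.33 (SE 0.089, adjusted p = 0.00503), and with gene length regressed out the log2 fold change was -0.14 (adjusted p = 0.0457).

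*Kmt2b* (chr7:31353877-31373745, - strand) had 27.1 and 26.8 RPKM in nB. Its level was 30.2, 32.7, and 31.0 RPKM in actB with DMSO, and 21.3, 21.6, and 22.0 in Pb with DMSO. The 3 groups did not overlap, with actB highest and Pb lowest. *Kmt2b* rose by 0.21 on the log2 scale from nB to actB (SE 0.050, adjusted p = 0.00181), a call that was lost with quantile normalization (log2 fold change 0.12, adjusted p = 0.0595) and held at 0.14 with median scaling and 0.13 with edgeR and RLE factors. It fell by 0.53 from actB to Pb (SE 0.044, adjusted p = 3.66e-07).

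*Setd1a* (chr7:134920184-134943636, + strand), the catalytic subunit of a SET1 complex, was at 24.5 and 21.1 RPKM in nB. Its level was 25.1, 22.6, and 23.8 RPKM in actB with DMSO, and 18.8, 18.0, and 19.2 in Pb with DMSO. The nB and actB ranges overlapped and all Pb libraries lay below them. The log2 fold change from nB to actB was 0.065 (SE 0.072, adjusted p = 0.421), and from actB to Pb *Setd1a* fell by 0.35 (SE 0.064, adjusted p = 3.54e-04). *Hsd3b7* overlaps exons of *Setd1a* on the same strand. How the counting treated reads of the overlap is not known, so their part in the level of *Setd1a* is not known either.

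Within the methyltransferases, *Kmt2c* and *Kmt2d* took a smaller share in actB with DMSO than in nB. *Kmt2b* and *Setd1a* took a larger share, in each case with no overlap of the groups. The summed level of the 5 genes was 139 and 144 RPKM in nB, 102 to 119 in actB with DMSO, and 87.6 to 91.9 in Pb with DMSO. *Kmt2c* made up 15.2% and 16.1% of this sum in nB, 6.43%, 7.49%, and 6.21% in actB with DMSO, and 10.4%, 11.0%, and 9.64% in Pb with DMSO. With GSK343 it made up 8.82%, 9.68%, and 8.51% in actB and 12.4%, 11.9%, and 11.5% in Pb, above all libraries with DMSO of the same cell type. *Kmt2b* took 19.5% and 18.6% of the sum in nB and 27.7%, 27.4%, and 30.5% in actB with DMSO. The share of *Kmt2d* was 23.7% to 24.5% in nB and 14.5% to 17.7% in actB with DMSO. That of *Setd1a* was 14.7% to 17.6% in nB and 19.0% to 23.4% in actB with DMSO.

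**Figure D3:**
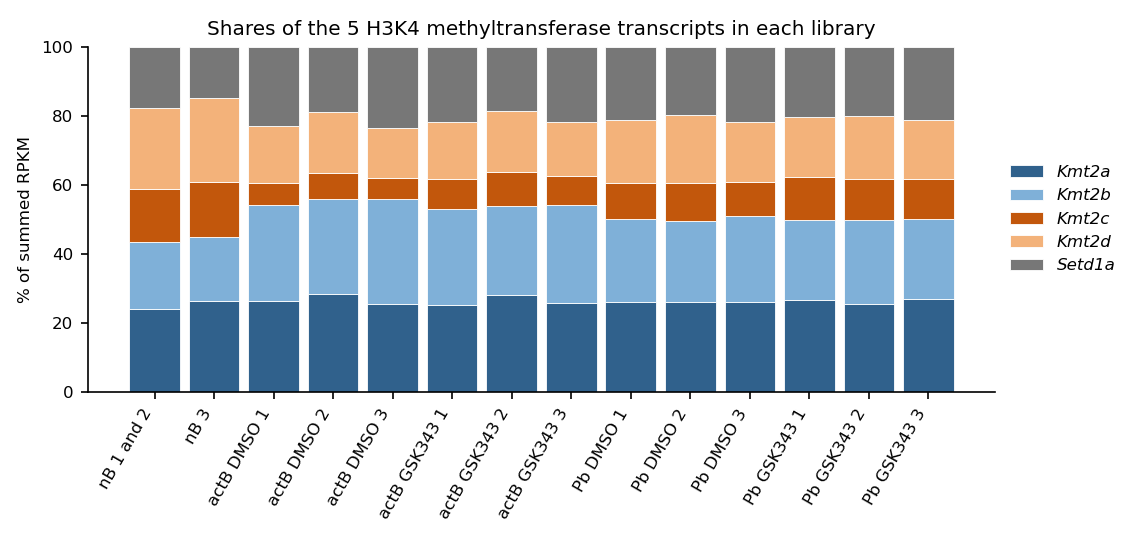
Share of each of 5 H3K4 methyltransferase transcripts (% of their summed RPKM, y axis) in each of the 14 libraries (x axis). *Kmt2c* held 15.2% and 16.1% in nB, 6.21% to 7.49% in actB with DMSO, and 8.51% to 9.68% in actB with GSK343.

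The partners PTIP and NCOA6 sit in the same complexes, yet their transcripts moved apart on activation. *Paxip1* (chr5:28067207-28117879, - strand), which encodes PTIP, was at 11.0 and 10.3 RPKM in nB, 26.6, 22.6, and 27 in actB with DMSO, and 20.9, 19.2, and 21.8 in Pb with DMSO. The 3 groups did not overlap, and nB was lowest. *Paxip1* was 2.34-fold higher in actB than in nB (SE of the log2 fold change 0.095, adjusted p = 1.19e-07) and fell by 0.29 on the log2 scale from actB to Pb (SE 0.085, adjusted p = 0.00866).

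*Ncoa6* (chr2:155216401-155299630, - strand), a coactivator of nuclear receptors, was at 16.5 and 15.3 RPKM in nB. Its level was 12, 10.7, and 10.6 RPKM in actB with DMSO, and 11.8, 11.0, and 9.78 in Pb with DMSO. Both nB libraries lay above every cultured library, and the actB and Pb ranges overlapped. *Ncoa6* fell by 0.51 on the log2 scale from nB to actB (SE 0.084, adjusted p = 1.11e-04). The log2 fold change from actB to Pb was -0.03 (adjusted p = 0.743, 95% interval -0.19 to 0.13).

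From nB to actB, 2 of the 9 genes rose (*Kmt2b* and *Paxip1*) and 5 fell (*Kdm6b*, *Kmt2a*, *Kmt2c*, *Kmt2d*, and *Ncoa6*), and 7 of the 9 had groups that did not overlap. Over all genes tested, 40.9% were called higher and 36.3% lower in this comparison, and 83.4% had groups that did not overlap. The median log2 fold change was -0.27 over the 9 genes, 0.05 over all genes, and -0.08 over the 3229 genes of at least 5000 bases, a length that all 9 exceed. From actB to Pb, 2 rose (*Kdm6a* and *Kmt2c*) and 5 fell (*Kdm6b*, *Kmt2a*, *Kmt2b*, *Setd1a*, and *Paxip1*), where 27.3% of all genes were called higher and 42.4% lower, and 6 of the 9 had groups that did not overlap, against 71.9% of all genes. From nB to Pb, *Paxip1* rose by 0.94 on the log2 scale and 7 genes fell, all but *Kdm6a*, where 39.5% of all genes were called higher and 41.1% lower, and all 9 had groups that did not overlap, against 86.9% of all genes. In each of these comparisons a large part of all genes was called, and those comparisons share their libraries with DMSO or nB. The fall of *Setd1a* from nB to Pb (log2 fold change -0.28, adjusted p = 0.00273) was lost without the merged nB library (adjusted p = 0.0541), and that of *Kmt2a* (-0.61) when gene length was regressed out (-0.12, adjusted p = 0.0903). The same alternative left the falls from nB to Pb called but smaller, at -0.66 in place of -1.24 for *Kmt2c*, -0.47 in place of -1.03 for *Kmt2d*, -0.35 in place of -0.54 for *Ncoa6*, and -0.12 in place of -0.32 for *Kmt2b*.

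From actB to Pb, the median over all genes tested was a log2 fold change of -0.12. After each library was scaled to a common median, the share of calls that were higher moved from 39.2% to 49.4%, and relative to this median *Kdm6a* rose by 0.37, *Kmt2c* rose by 0.43, *Kmt2b* fell by 0.42, *Setd1a* fell by 0.24, and *Kmt2a* fell by 0.22. *Kdm6b* and *Paxip1* (log2 fold change -0.18, adjusted p = 0.0626) then no longer passed the test. The call of *Paxip1* was also lost with gene length regressed out (0.0755) and with edgeR and RLE factors (0.0527).

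The nB libraries also held transcripts of other cells. The summed level of 4 myeloid markers was 167 to 204 RPKM in nB, 3.97 to 5.31 in actB with DMSO, and 0.452 to 0.846 in Pb with DMSO. *Lyz2* held most of the sum in nB (mean 166 RPKM). *Itgam* did not follow it, with a mean of 4.02 RPKM in nB and 4.27 in actB with DMSO. The summed level of 4 T cell markers was 16.0 to 16.5 RPKM in nB and at most 0.351 in cultured cells. That of 2 NK cell markers was 4.62 to 5.33 in nB and at most 0.0535 in cultured cells. Their part in the differences between nB and cultured cells, such as that of *Kdm6b*, was not tested. Cells of nB were also uncultured, so sorting gate, culture, and activation cannot be told apart in these comparisons.

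**Figure D4:**
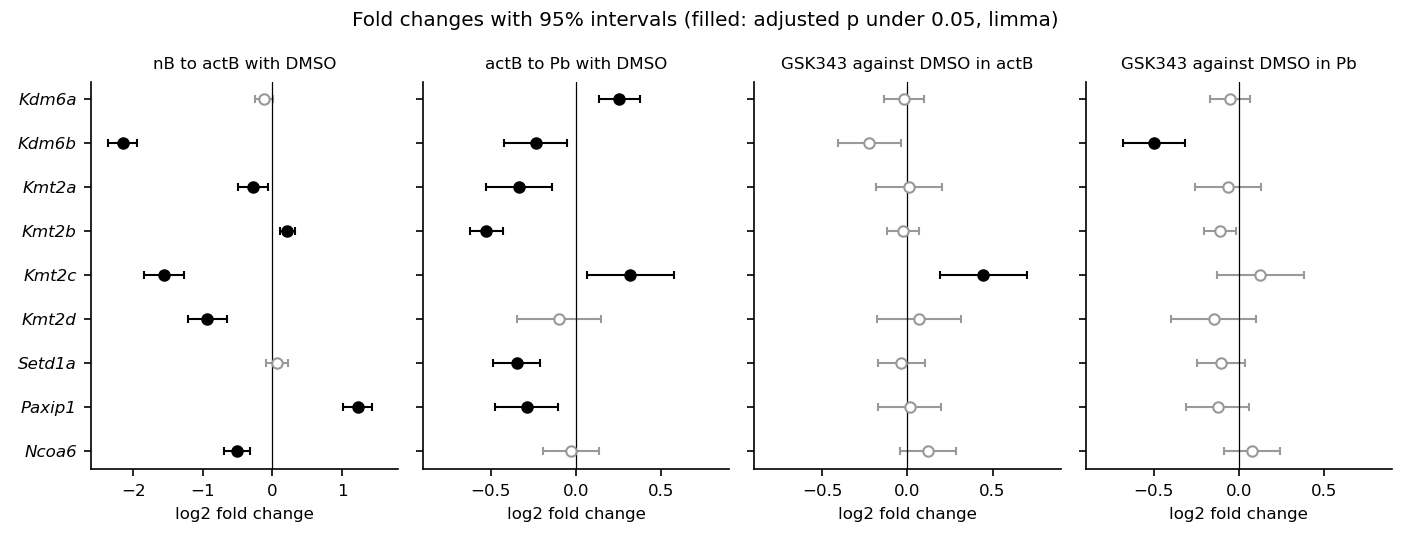
Log2 fold changes (x axis) of the 9 genes in 4 comparisons, with 95% intervals from limma. Filled points have an adjusted p under 0.05: 7 genes from nB to actB, 7 from actB to Pb, *Kmt2c* with GSK343 in actB, and *Kdm6b* with GSK343 in Pb.

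With GSK343, 1 of the 9 genes was called in each cell type, where 10.4% of all genes tested were called in actB and 12.9% in Pb. In actB, *Kmt2c* rose by 0.45 on the log2 scale, and in Pb *Kdm6b* fell by 0.50. In the other pairs of gene and cell type the log2 fold change was between -0.22 and 0.13 and did not pass the test.

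In Pb, *Kdm6b* was lower with GSK343 in 3 of 3 pairs of libraries with the same replicate number, with log2 ratios of -0.55, -0.49, and -0.46. The groups did not overlap, as the values above show (log2 fold change -0.50, SE 0.084, 95% interval -0.68 to -0.32, adjusted p = 0.00297), which is a level 29.3% lower. The call held under all 19 alternatives to this fit, with adjusted p from 6.11e-04 to 0.0183. Markers of cell state moved alongside. Naive B cell markers, 4 in number, summed to 162 to 185 RPKM in Pb with DMSO and to 110 to 136 with GSK343. Each of the 4 was lower with GSK343 without overlap, where 34.1% of all genes had groups that did not overlap. The sum of the 6 plasmablast markers overlapped (3083 to 3234 and 3151 to 3417 RPKM), with *Sdc1*, which encodes CD138, the marker of the sort, at a mean of 29.7 RPKM with DMSO and 55.3 with GSK343, *Tnfrsf17* higher, and *Irf4* lower without overlap. Their part in the difference of *Kdm6b* was not tested. In actB the log2 ratios were -0.29, -0.15, and -0.23. The groups did not overlap there either, at a log2 fold change of -0.22 (SE 0.084, 95% interval -0.41 to -0.04), which missed the threshold (adjusted p = 0.118). It passed with the replicate number as a block (adjusted p = 0.0232) and with quantile normalization (0.0389).

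*Kmt2c* was at 9.81, 11.2, and 9.37 RPKM in actB with GSK343, above the 7.0, 8.94, and 6.32 with DMSO. The log2 ratios of libraries with the same number were 0.47, 0.32, and 0.55, and the groups did not overlap (log2 fold change 0.45, SE 0.117, 95% interval 0.19 to 0.70, adjusted p = 0.0309). With the replicate block the adjusted p was 0.00525. The call was lost with no filter on low values (adjusted p = 0.0527), with median scaling (0.0501), and with the compared groups alone (0.150). It was also lost without replicate 1 (0.105) or 3 (0.117) of actB with DMSO and without replicate 1 (0.0674), 2 (0.0828), or 3 (0.0524) of actB with GSK343, with log2 fold changes of 0.34 to 0.50. Without replicate 2 of actB with DMSO, which stood apart, it was 0.58 (adjusted p = 0.00417). In Pb the level was 10.8, 10.1, and 9.43 RPKM with GSK343, and the log2 fold change was 0.13 (adjusted p = 0.547, 95% interval -0.13 to 0.38).

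The summed level of the 4 myeloid markers moved with the drug in actB, from 3.97 to 5.31 RPKM with DMSO to 7.89 to 13.6 with GSK343. *Itgam* held most of it, with a mean of 9.95 RPKM with GSK343 and 4.27 with DMSO, whereas the means of *Lyz2*, *Csf1r*, and *Cd14* were at most 0.772 RPKM. The sum of the 6 plasmablast markers was also higher with GSK343, at 550 to 669 RPKM against 485 to 522. Of the 6, 5 were higher without overlap, where 25.9% of all genes had groups that did not overlap. Among these, *Sdc1* and *Tnfrsf17* were low in actB, with means of at most 0.965 and 0.263 RPKM. The sum of the 4 naive B cell markers overlapped (537 to 617 against 580 to 678). *Cr2* and *Fcer2a* were lower without overlap, the latter at a mean of 42.6 RPKM against 77.7. *Kmt2c* had a mean of 7.42 RPKM in actB and 9.25 in Pb with DMSO, with overlapping ranges, and 10.1 in actB with GSK343. The part of the marker shifts in the difference of *Kmt2c* with GSK343 was not tested.

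*Kdm6a* was measured at 22.6, 22.1, and 22.8 RPKM in actB and at 27.9, 24.5, and 26.6 in Pb with GSK343, within or near the ranges with DMSO. Its log2 fold change with GSK343 was -0.02 in actB (95% interval -0.14 to 0.10) and -0.05 in Pb (-0.17 to 0.06). *Kmt2b* was at 20.1, 20.7, and 19.2 RPKM and *Setd1a* at 17.6, 17.0, and 17.3 in Pb with GSK343, in both cases below all Pb libraries with DMSO. The log2 fold changes were -0.11 for each gene (SE 0.044, adjusted p = 0.129 for *Kmt2b*, and SE 0.064, adjusted p = 0.330 for *Setd1a*), and neither passed the test. *Paxip1* was at 19.8, 17.5, and 19.6 RPKM in Pb with GSK343, which overlapped the range with DMSO (log2 fold change -0.12, adjusted p = 0.401, and 0.0487 with the replicate block). The remaining genes, *Kmt2a*, *Kmt2d*, and *Ncoa6*, had overlapping groups in both cell types.

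Of the 9 genes, 1 was called higher and 0 lower with GSK343 in actB, where 8.2% of all genes tested were called higher and 2.16% lower. In Pb 0 were called higher and 1 lower, where 7.9% of all genes were called higher and 5% lower. With the replicate block, 1 gene was called higher and 1 lower in actB (14.7% and 6.24% of all genes), and 0 higher and 2 lower in Pb (13.6% and 10.7%), so that 2 of the 9 were called in each cell type against 21% and 24.2% of all genes. Groups with and without GSK343 did not overlap for 2 of the 9 genes in actB and 3 in Pb, against 25.9% and 34.1% of all genes. The share of calls that were higher depended on the scaling in actB, at 79.1% as fitted, 65.1% with median scaling, 61.6% with quantile normalization, 65.8% with edgeR and TMM factors, and 54.3% with gene length regressed out. The difference of the effects in Pb and actB, tested as an interaction, was called for 0 of the 9 genes by limma and for 0.248% of all genes. Before adjustment the difference passed the threshold for *Kdm6b* alone (-0.28, SE 0.119, adjusted p = 0.514), as it did for 1017 of the 11299 genes in limma, and that of *Kmt2c* was -0.32 (SE 0.165, adjusted p = 0.641). With edgeR, 0 of the 9 were called as well. The effects of GSK343 on *Kdm6b* and *Kmt2c* were thus not shown to differ between the cell types.

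Other genes of the complexes were read from lists written from general knowledge. The shared COMPASS core, which supports the catalytic activity of all these methyltransferases, rose for 3 of 4 genes from nB to actB, where 40.9% of all genes rose, and fell for 4 of 4 from actB to Pb, where 42.4% of all genes fell. Lists of so few genes are given as counts and set apart from other genes by no test. *Dpy30* rose by 0.77 and *Wdr5* by 0.47 on the log2 scale in the first step, and *Dpy30* fell by 0.44 (adjusted p = 0.0276) and *Rbbp5* by 0.34 in the second. Genes listed as subunits of the MLL1 and MLL2 complexes rose for 4 of 4 from nB to actB (40.9% of all genes), led by *Hcfc1* (0.67) and *Psip1* (0.53). Such a listing does not exclude a place in other complexes. From actB to Pb 2 of these 4 genes rose (27.3% of all genes), *Hcfc2* by 1.35 and *Psip1* by 0.40. *Hcfc1* fell by 0.19 (42.4% of all genes).

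Of the SET1 subunits, 3 of 4 fell from nB to actB (36.3% of all genes), among them *Bod1* (log2 fold change -0.54) and the CpG-binding subunit *Cxxc1* (-0.37). In the step to Pb *Bod1* (0.45) and *Cxxc1* (0.24) rose (27.3% of all genes), and *Wdr82* fell by 0.68 (42.4% of all genes). *Pagr1a*, whose product is a subunit of the MLL3 and MLL4 complexes bound to PTIP, was called in neither step (log2 fold changes 0.09 and 0.04). Thus *Kmt2c* and *Kmt2d* fell on activation while *Paxip1* rose and *Pagr1a* was not called.

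Enzymes that act on the same residues were read in the same way. Over all genes tested, 40.9% were called higher and 36.3% lower from nB to actB. From actB to Pb these shares were 27.3% and 42.4%. *Kdm7a*, another enzyme with H3K27 demethylase activity, fell by 2.17 on the log2 scale from nB to actB (SE 0.084, adjusted p = 1.81e-10) and was not called in the step to Pb (0.08, adjusted p = 0.361). Of 5 H3K4 demethylases tested, *Kdm1a* (0.33) and *Kdm5c* (0.27) rose and *Kdm1b* (-0.42) and *Kdm5a* (-0.36) fell from nB to actB, and *Kdm1b* fell by 0.60 from actB to Pb. *Kdm5d*, the Y-linked member of that list, had 0 reads in every library. Both H3K27 acetyltransferases fell from nB to actB, *Crebbp* by 1.06 and *Ep300* by 0.43, and in the step to Pb *Crebbp* fell by 0.26 and *Ep300* rose by 0.19. Of the PRC2 core, *Ezh2* (2.83), *Suz12* (0.94), and *Eed* (0.47) rose and *Ezh1* fell by 1.48 from nB to actB, and *Eed* fell by 0.55 and *Ezh2* by 0.38 from actB to Pb. Of these 25 genes tested, 0 were called with GSK343 in actB and 1 in Pb, where *Ash2l* of the COMPASS core fell by 0.23 (SE 0.063, adjusted p = 0.0306). Over all genes tested the shares called were 10.4% and 12.9%.

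**Figure D5:**
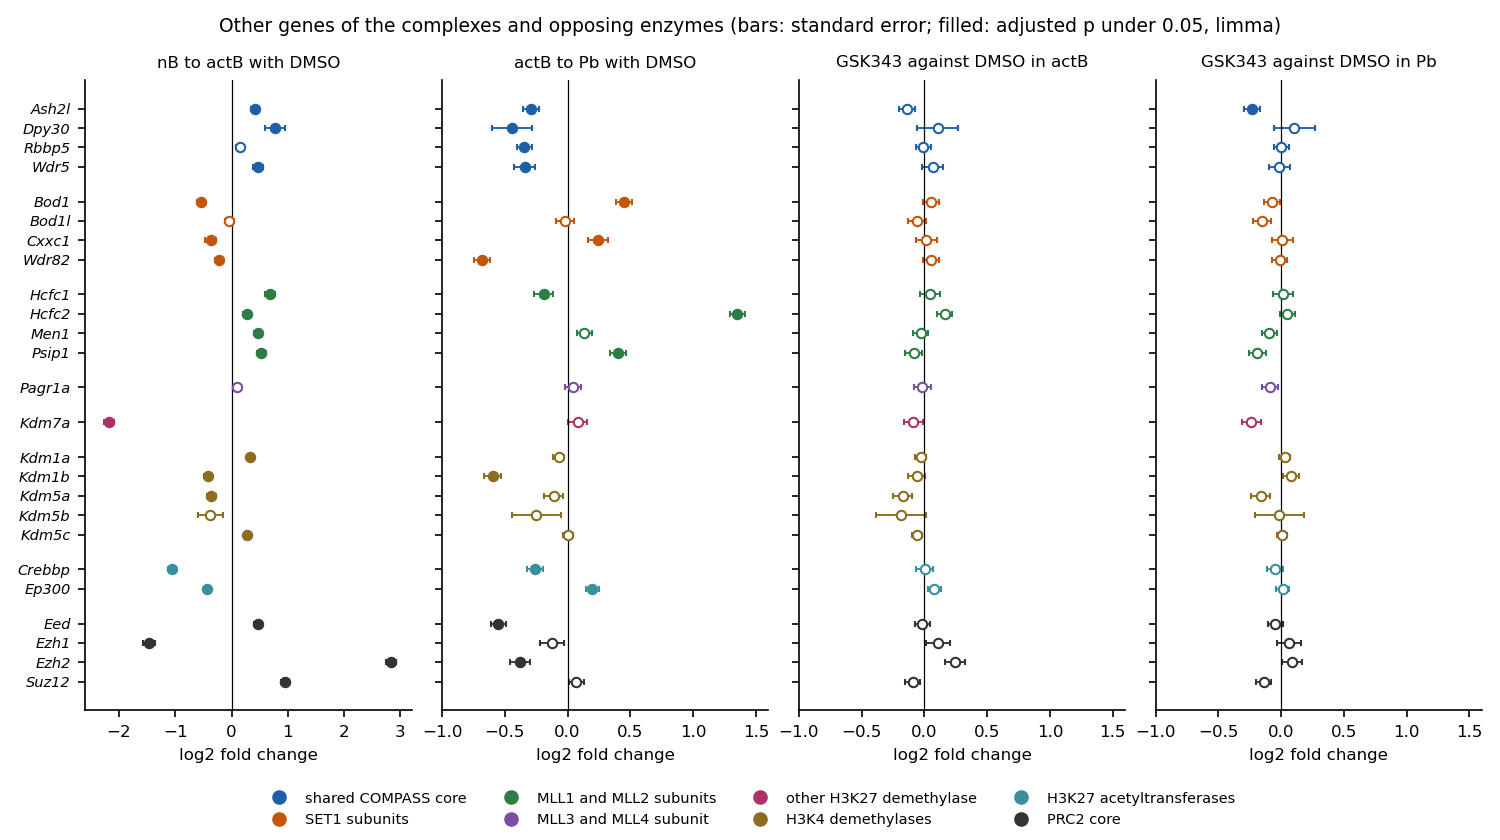
Log2 fold changes (x axis, with standard errors from limma) of 25 other genes of the complexes and of opposing enzymes, coloured by list, in 4 comparisons. Filled points have an adjusted p under 0.05. *Ezh2* rose by 2.83 and *Kdm7a* fell by 2.17 from nB to actB, and *Ash2l* is the 1 filled point with GSK343.

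The genes differed in their pattern over the 14 libraries, described by Pearson's r of log2(RPKM + 0.25) across libraries, which share groups and are not independent. Among the 36 pairs of the 9 genes, the patterns of *Kdm6b* and *Kmt2d* (r = 0.941) and of *Kmt2b* and *Setd1a* (0.926) were most alike, followed by *Kmt2c* with *Kmt2d* (0.863), *Kmt2a* with *Kmt2d* (0.851), and *Ncoa6* with *Kdm6b* (0.842). *Kmt2c* with *Ncoa6* (0.836) came next. The nearest patterns to *Paxip1* (*Kmt2b*, 0.294) and *Kdm6a* (*Kmt2c*, 0.124) were distant. Over all genes tested, *Tob2* (0.990), *Rrm2b* (0.990), and *Tsc22d2* (0.989) had patterns most like that of *Kdm6b*. For *Kdm6a* these were *Zfp568* (0.952), *Gtf2a1* (0.944), and *Rsbn1* (0.943).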

How the data were processed

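RNA-seq of 15 samples was analysed, in 5 groups of 3 taken from the labels. Libraries were made from the poly(A) fraction of 500 ng total RNA, and paired-end reads of 50 bp were obtained. The authors mapped reads to mm9 with TopHat2, counted reads over exons of each Entrez gene with GenomicRanges 1.22.4, and deposited RPM (reads scaled to 1000000 counted) with the gene length in bases. The table is named for RPKM, but each column sums to 1000000 within 1, and 100% of the values were whole reads within 0.1 read, from which reads were recovered. The deposited lengths were used to compute RPKM here. Genes with no symbol, 92 in number, were left out. Sequenced depth before counting is not given in the sources used here.

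The genes described and the other lists were chosen with earlier results of these data known. All 10 listed genes were to be named, and of each other list every gene called with GSK343 and up to 2 genes per direction with the largest change in each step of differentiation. For likeness, the 3 genes most like *Kdm6a* and *Kdm6b*, and the nearest other gene on the list, were named. *Setd1b* was not analysed here. Markers were listed for naive and activated B cells, plasmablasts, T, myeloid, NK, and red cells. The summed level of 3 markers of activated or cycling B cells was 12.6 to 15.2 RPKM in nB and 266 to 373 in cultured cells, and the 1 red cell marker in the table was at 29.0 to 129 RPKM in nB and 0.916 to 18.5 in cultured cells.

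A gene was tested when 3 or more of the 15 columns reached 1 RPKM. Replicates 1 and 2 of nB had a chi-square per degree of freedom of 0.00958 over 14442 genes with at least 10 reads, against at least 3.58 for the other pairs, and entered as their mean. Values of log2(RPKM + 0.25) in 14 libraries were modelled in limma 3.58.1 (R 4.3.3, lmFit and eBayes with a trend), with 9 residual degrees of freedom. Fold changes are on this scale, p-values are two-sided, and adjusted p-values (Benjamini-Hochberg over all genes tested) under 0.05 were called. The fit was tested on simulated data with known changes. Ratios within libraries were compared by exact permutation tests.

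Libraries that share a replicate number were compared across the cultured groups. After the group means were removed, libraries that share number 1 had r of 0.158 to 0.502, those that share number 2 had 0.435 to 0.713, and those that share number 3 had 0.219 to 0.356 (6 pairs each), against -0.603 to 0.370 over 36 pairs of unlike number. The ranges of numbers 1 and 3 overlapped that of unlike numbers, and replicate 2 stood apart in every cultured group, so pairing was not settled. The number was also fitted as a block, over the 12 cultured libraries. The alternatives also included a pseudocount of 1 or 0.05, all 18752 genes without a filter, the 9887 genes that reach 3 RPKM, quantile normalization, scaling to the median, gene length regressed out, edgeR 4.0.16 on recovered reads (11146 genes), all 15 columns, the compared groups alone, and each library left out. Leaving out replicate 2 of every cultured group was added after the data were seen. Coordinates of genes are from GENCODE vM1 on mm9 (1-based), and promoters are from RefSeq on GRCm38.p6.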

Additional observations from a re-analysis of the deposited data

How the results depend on the processing

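Of all results for single genes, those called kept their direction and side of the threshold in 395 fits, lost the call in 30, and turned in 1. Those not called did so in 561 fits, became calls in 15, and turned in 42. The number of the 9 genes called was 7 from nB to actB (6 to 7 with a library left out), 7 from actB to Pb (5 to 7), and 8 from nB to Pb (7 to 9). With GSK343 it was 1 in actB (0 to 1) and 1 in Pb (1 with every library left out), and 0 for the difference of the effects (0). In actB it was 0 with no filter, with median scaling, and with the compared groups alone, and 2 with quantile normalization and with the replicate block. In Pb it was 2 with the replicate block, which gave 2368 calls over all genes in actB, 2740 in Pb, and 83 for the difference, against 1170, 1458, and 28 without it. With a library left out, calls over all genes ranged from 608 to 1363 in actB, 690 to 1304 in Pb, and 0 to 58 for the difference. They were 608, 646, 708, and 627 in actB without replicate 1 or 3 with DMSO and 1 or 3 with GSK343, and 819, 921, 741, and 690 in Pb in the same order. For the difference, leaving out replicate 2 of actB or of Pb with GSK343 gave 36 and 58, and any other cultured library at most 13. With the compared groups alone these were 386 in actB and 4 for the difference. For the difference they were also 48 with all 15 columns, 18 with quantile normalization, and 146 without replicate 2 of every cultured group. The replicate block changed no other call on the 9 genes, and nB was left out of the block because its merged library carries no single number. The cause of these shifts was not tested.

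Values that turned sign are log2 fold changes. From nB to actB, *Kmt2a* was 0.015 with gene length regressed out. *Setd1a* was -0.0079 with median scaling, -0.0069 with quantile normalization, -0.022 with edgeR and RLE, and -0.040 to 0.17 with a library left out. From actB to Pb, *Kmt2d* was 0.012 with median scaling, 0.11 with length regressed out, 0.0033 with RLE, and -0.23 to 0.027 with a library left out. *Ncoa6* was 0.081 with median scaling, 0.089 with quantile normalization, 0.10 with length regressed out, 0.034 with TMM, 0.086 with RLE, and -0.091 to 0.041 with a library left out. With GSK343 in actB, *Kmt2a* was -0.023 with median scaling, -0.084 with length regressed out, -0.028 with TMM, -0.031 with RLE, and -0.079 to 0.12 with a library left out. *Paxip1* was -0.019 with median scaling and TMM, -0.022 with RLE, -0.039 with length regressed out, and -0.067 to 0.077 with a library left out. *Kmt2d* was -0.033 with length regressed out. With a library left out, *Kmt2d* was -0.062 to 0.19, *Setd1a* -0.073 to 0.015, and *Kmt2b* -0.052 to 0.0065. Without replicate 2 of every cultured group, *Kmt2b* was 0.021 and *Paxip1* -0.0045. For the difference with length regressed out, *Kdm6a* was 0.018, *Kmt2a* 7.4e-06, and *Ncoa6* 0.014, and with a library left out they were -0.075 to 0.018, -0.18 to 0.016, and -0.12 to 0.016. The ratios kept their direction with each library left out and with all 15 columns.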
